A study of Mus musculus with 8 samples.

Results

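The regions described here carried a 5-hydroxymethylcytosine (5-hmC) peak in both wild-type libraries and in neither HDAC7-deficient library, and are called lost regions. They were chosen by the presence and absence of peaks in the same 4 libraries, after overlapping peaks of the 4 lists had been merged on chromosomes 1 to 13. They number 47478 of 1894774 merged regions on those chromosomes (2.51%) and of 2588824 in the whole series. Because the rule used the wild-type against HDAC7-deficient contrast, every count of lost regions is a description and none was tested.

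The study asked how HDAC7, a class IIa histone deacetylase that represses genes of other lineages in B-cell progenitors, shapes DNA hydroxymethylation. Sorted B220+CD43+IgM- pro-B cells came from bone marrow of C57BL/6 mice between 4 and 6 weeks old. The wild-type libraries (n = 2) came from littermates described in the methods as Hdac7+/-, so the controls also carried a null allele, and the HDAC7-deficient libraries (n = 2) came from Hdac7 fl/- mice in which Cre expressed from the mb1 (Cd79a) locus deletes the floxed allele in the B lineage. The labels do not say whether the 2 libraries of a genotype came from separate animals or from pools. With 2 libraries a group, an exact permutation test over samples has 6 arrangements and a smallest two-sided p of 0.333, so no difference between the genotypes could reach 0.05 by that test.

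5-hmC is made from 5-methylcytosine by the TET dioxygenases, which need a methylated cytosine, in most cells within a CpG dinucleotide. It is an intermediate of active demethylation and is also a stable base that collects in gene bodies and at enhancers of active genes. In hMeDIP-seq an antibody pulls down sonicated DNA fragments that carry the base, so a peak marks a stretch of fragments and not a single cytosine. A lost peak says only that the HDAC7-deficient lists hold no call there. The signal may have fallen below the caller's threshold, or a call may have been removed for meeting an input peak. The lists give neither the height of a peak nor the number of reads under it.

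Some lost regions lay at the start of genes on the lists described below. Over all protein-coding genes, 4.09% had a lost and 3.89% a gained region in the promoter. The sequences of 5 of them are shown because the regions overlapped the promoter, here 1000 bp upstream to 100 bp downstream of the start site, of Ikzf3 (Aiolos, a zinc finger factor of the Ikaros family), Cd4 and Thy1 (T-cell surface proteins), Gadd45a (a stress protein linked to demethylation) and Dnmt3l (a cofactor of the de novo methyltransferases). They are read from the plus strand of GRCm38, trimmed to the central 300 bp where longer, in lower case with each CpG, the site that can carry the mark, in capitals.
Ikzf3 promoter, chr11:98546618-98546917: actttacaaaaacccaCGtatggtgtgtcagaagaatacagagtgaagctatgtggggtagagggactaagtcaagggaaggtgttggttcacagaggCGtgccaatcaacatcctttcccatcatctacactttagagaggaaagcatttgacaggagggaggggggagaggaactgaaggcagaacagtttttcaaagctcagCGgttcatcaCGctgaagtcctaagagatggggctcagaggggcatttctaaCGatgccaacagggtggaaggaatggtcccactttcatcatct
Cd4 promoter, chr6:124888852-124889099: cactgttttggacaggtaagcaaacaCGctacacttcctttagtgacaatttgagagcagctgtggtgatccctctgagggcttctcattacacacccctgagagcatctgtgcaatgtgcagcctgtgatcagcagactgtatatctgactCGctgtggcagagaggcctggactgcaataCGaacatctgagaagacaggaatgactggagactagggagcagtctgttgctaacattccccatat
Thy1 promoter, chr9:44042747-44043002: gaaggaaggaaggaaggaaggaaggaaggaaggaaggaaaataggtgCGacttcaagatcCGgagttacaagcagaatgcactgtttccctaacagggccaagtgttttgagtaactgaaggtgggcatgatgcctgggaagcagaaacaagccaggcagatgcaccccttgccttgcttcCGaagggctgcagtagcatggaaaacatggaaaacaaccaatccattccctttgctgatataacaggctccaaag
Gadd45a promoter, chr6:67037541-67037773: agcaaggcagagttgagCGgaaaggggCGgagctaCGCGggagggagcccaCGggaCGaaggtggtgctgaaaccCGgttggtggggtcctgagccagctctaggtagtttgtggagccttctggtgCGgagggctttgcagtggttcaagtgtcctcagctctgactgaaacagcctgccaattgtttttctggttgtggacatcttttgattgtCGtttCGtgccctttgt
Dnmt3l promoter, chr10:78041761-78041873: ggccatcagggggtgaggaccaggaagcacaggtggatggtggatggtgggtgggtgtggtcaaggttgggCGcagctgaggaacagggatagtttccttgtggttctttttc

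These 5 stretches differed in how many CpG sites they offered. The Gadd45a region held 10 CpG in 233 bp, whereas the Dnmt3l region held 1 in 113 bp. The Ikzf3 stretch held 5, and the Cd4 and Thy1 regions held 3 each. Of the motif letters searched, CAGCTG (the E-box of E2A) occurred once each in the Cd4 and Dnmt3l regions, and TGGGAA (Ikaros) once each in the Ikzf3 and Thy1 regions. CCCNNGGG (EBF1) occurred once in the Gadd45a region and TGTGGTT (RUNX) once in the Dnmt3l region.

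The lost regions named by rule lay mostly outside promoters, as regions of every kind did. By midpoint, 2.49% of lost and 2.49% of all merged regions were in promoters. By the rule for named regions (the largest smaller peak, with no more than 50% of the region soft-masked), 8 regions were described. By midpoint 1 of them lay at a start site, 4 in introns and 3 between genes. Stretches of a pair of them are shown, the CpG-rich start site of the long noncoding RNA gene Gm40323, and a CpG-poor stretch within an intron of Grm8, which encodes a glutamate receptor.
Gm40323 start site, chr5:125361019-125361318: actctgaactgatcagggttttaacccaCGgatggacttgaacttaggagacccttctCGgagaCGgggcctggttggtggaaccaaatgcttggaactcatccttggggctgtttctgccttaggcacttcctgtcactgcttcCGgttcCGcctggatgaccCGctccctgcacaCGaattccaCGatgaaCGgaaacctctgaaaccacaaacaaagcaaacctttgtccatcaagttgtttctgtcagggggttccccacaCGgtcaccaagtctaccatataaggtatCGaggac
Grm8 intron, chr6:28005620-28005919: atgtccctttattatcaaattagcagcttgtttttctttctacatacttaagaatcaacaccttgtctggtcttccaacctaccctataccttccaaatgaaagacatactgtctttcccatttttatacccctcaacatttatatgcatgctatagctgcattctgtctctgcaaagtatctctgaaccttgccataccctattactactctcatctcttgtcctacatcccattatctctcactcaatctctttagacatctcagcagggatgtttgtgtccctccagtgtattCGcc

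The Gm40323 stretch held 11 CpG at 52.0% GC, and the Grm8 stretch held 1 at 39.7% GC. Both regions carried broad peaks in both wild-type libraries. At Gm40323 peaks covered 784 bases in wild-type 1 and 1028 in wild-type 2, and the nearest HDAC7-deficient peak was 1051 bp away. At Grm8 they had 961 and 927 bases, and the nearest HDAC7-deficient peak was 864 bp away. The first of the 8 by this measure, chr7:101529296-101530468 in an intron of the noncoding gene Gm35363, had 1173 and 1036 bases under wild-type peaks and an HDAC7-deficient peak only 21 bp from its edge.

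Loss was less frequent than 4 of the 5 other ways in which peaks can fall into 2 of the 4 libraries. Lost regions (47478) were fewer than gained regions, those with a peak in both HDAC7-deficient libraries and in neither wild-type library (53562, 2.83%). Pairs of libraries that share a replicate number but not a genotype gave 89375 regions for number 1 (4.72%) and 60658 for number 2 (3.20%). The crossed pairs gave 54939 for wild-type 2 with HDAC7-deficient 1 and 45524 for wild-type 1 with HDAC7-deficient 2. Of the 6 pairs, only the last was smaller than the lost set, and lost regions were fewer than gained ones on all 13 chromosomes, with a ratio of lost to gained from 0.845 (chromosome 13) to 0.950 (chromosome 11). The ratio over all 13 was 0.886, and it turned to 1.11 when only peaks at least 200 bp wide were used.

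The lists themselves were similar in size on these chromosomes. Numbers of peaks were 959005 (wild-type 1), 1035391 (wild-type 2), 1050099 (HDAC7-deficient 1) and 962302 (HDAC7-deficient 2). They covered 9.42% and 10.8% of known bases in the wild-type lists, against 9.31% and 10.2% for the HDAC7-deficient ones, so the replicates of a genotype differed more than the genotypes. Read depth is unknown. The Hdac7 gene held 58 and 44 wild-type peaks, against 53 and 43 HDAC7-deficient ones, which do not check the deletion, and peak positions hold no expression with which to check the cell type.

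**Figure D1:**
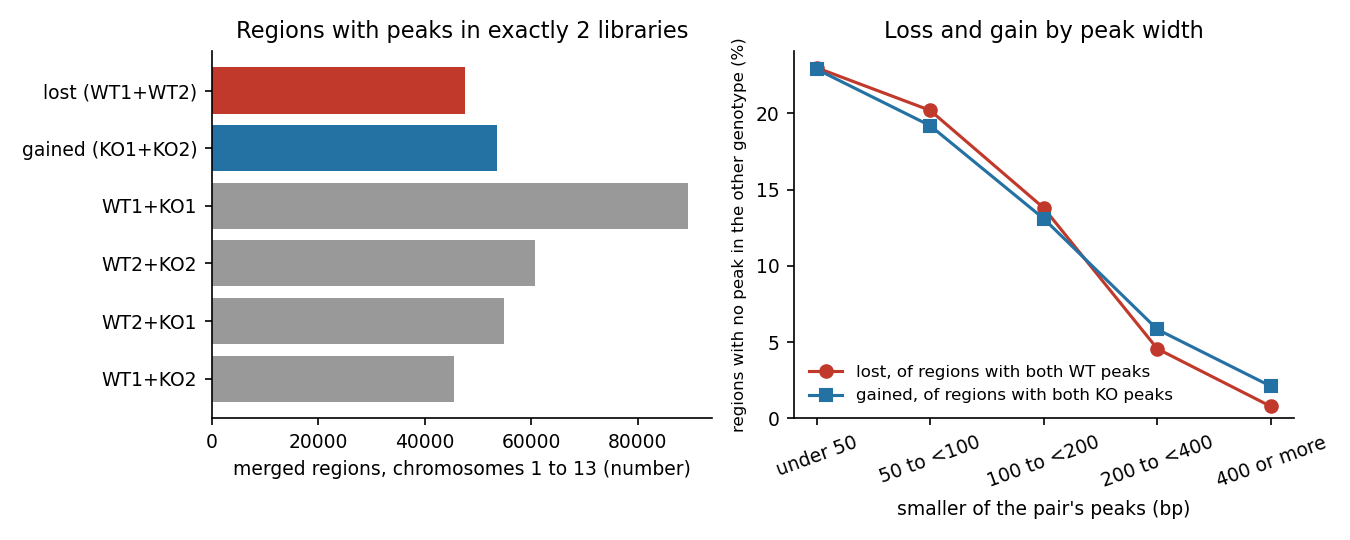
Left, merged regions on chromosomes 1 to 13 with peaks in exactly 2 of the 4 libraries (WT, wild-type; KO, HDAC7-deficient; 1 and 2, replicate numbers), as bars from 0. Right, percent of regions with both peaks of a genotype that had no peak in the other genotype, by the width in bp of the smaller peak. The lost bar, 47478, is the second lowest, and both lines fall from 23.0% (lost) and 22.9% (gained) under 50 bp to 0.787% (lost) and 2.11% (gained) at 400 bp or more.

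Regions with narrow peaks were lost at the highest rates. Of 418608 regions with peaks in both wild-type libraries, 55.5% had a peak in both HDAC7-deficient libraries, 33.1% in 1 of them and 11.3% in neither. The last share was 23.0% where the smaller wild-type peak was under 50 bp and 20.2% from 50 to under 100 bp. It was 13.8% from 100 to under 200 bp and 4.57% from 200 to under 400 bp. Among 28829 regions with at least 400 bp in both wild-type libraries, 227 (0.787%) were lost, while 638 of 30261 (2.11%) of the matching HDAC7-deficient regions were gained. Regions with broad peaks were rarely without a peak in the other genotype, in either direction. The fall with width is partly set by the rule. A peak of the other genotype that shares 1 bp is enough, and a wider region offers more bases to share. How much of the fall comes from this was not tested.

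The median lost region was 241 bp wide (5th to 95th percentile 85.0 to 462 bp), and the widest was 1352 bp. The median number of bases under a peak was 147 in wild-type replicate 1 and 189 in wild-type replicate 2. In 89.3% of the regions each library had a single peak. The smaller peak was under 50 bp in 20.3% and at least 200 bp in 15.1%. At the threshold of the rule, 2026 regions rested on an overlap of at most 10 bp between the wild-type peaks, and 1695 pairs of such peaks that lay at most 10 bp apart stayed outside it.

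Lost regions were often close to a peak of the cells they were said to be missing from. The nearest HDAC7-deficient peak lay at a median of 406 bp from the edge, with 16.7% within 100 bp and 2.20% within 10 bp. It was more than 500 bp away for 20114 regions (42.4%) and more than 2 kb away for 2139 (4.51%). For gained regions the median distance to a wild-type peak was 376 bp, and for the other pairs the distance to the nearest missing peak ranged from 365 to 431 bp.

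Peak cover next to lost regions is partly set by the rule, since a peak of an absent library cannot touch them, and is given as a description. In the 100 bp next to a lost region, 3.71% and 5.60% of bases lay under peaks of wild-type 1 and wild-type 2, which is 0.394 and 0.520 of the means of those lists. For HDAC7-deficient 1 and HDAC7-deficient 2 it was 2.06% and 1.98%, or 0.221 and 0.194 of the mean. The ratio of the genotypes was 2.20 in this bin, 1.37 from 100 to 200 bp, 1.05 from 200 to 500 bp and between 1.00 and 1.01 at every distance from 500 bp to 10 kb. Around gained regions it was 0.443, 0.720 and 0.928 in the same 3 bins and at least 0.978 beyond. Pairs that cross the genotypes also had more cover in the present than in the absent libraries. In the first bin the number 1 pair had 0.366 and 0.374 of the mean in the present against 0.195 and 0.188 in the absent libraries, and the number 2 pair 0.554 and 0.538 against 0.214 and 0.227.

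**Figure D2:**
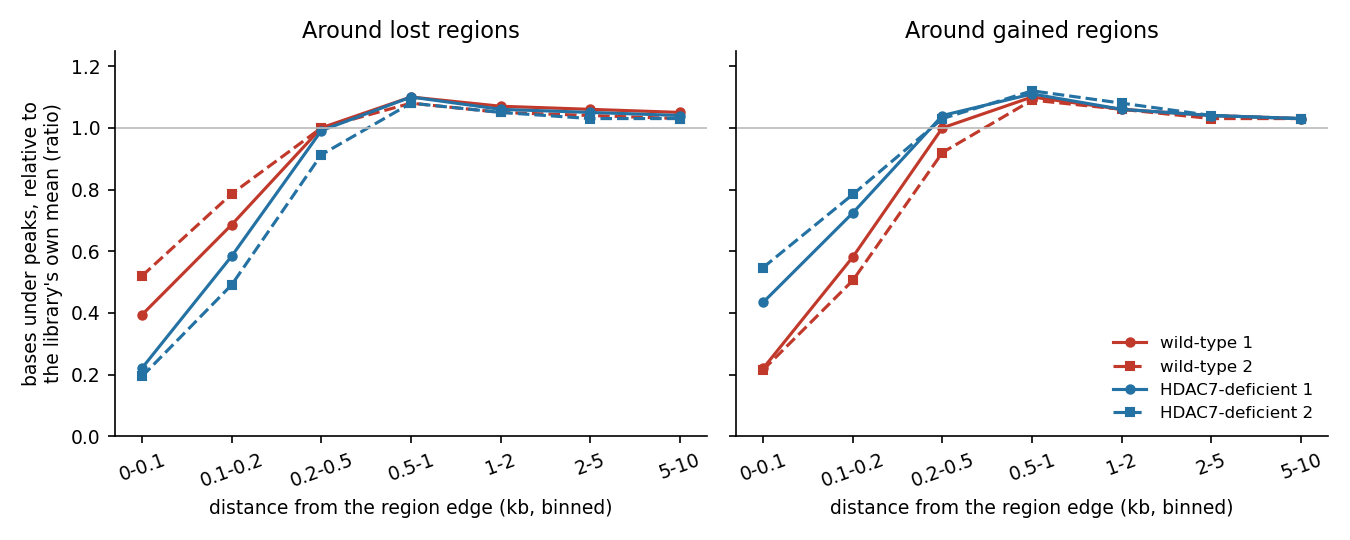
Bases under peaks by distance from the edge of lost (left) and gained (right) regions, in unequal bins of kb on the x axis, relative to each library's mean over chromosomes 1 to 13 on the y axis. Lines are the 4 libraries. Within 0.1 kb of lost regions the wild-type lines are at 0.394 and 0.520 and the HDAC7-deficient lines at 0.221 and 0.194, and from 0.5 kb all 4 lie between 1.03 and 1.10.

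Lost regions lay in gene bodies a little more often than the other regions did. By midpoint 47.3% (95% Wilson interval 46.9 to 47.8) were intergenic, 45.4% intronic, 4.83% exonic and 2.49% in promoters. Gained regions were 49.6% intergenic and 43.4% intronic, and the other 4 pairs were 47.8% to 49.9% intergenic. All merged regions were 48.6% intergenic and the bases of the 13 chromosomes 50.2%. On 13 of 13 chromosomes the intergenic share was lower for lost than for gained regions. The promoter share equalled that of all merged regions (2.49%), and gained regions had 2.28%. Intervals over regions cover counting alone, since regions of the same libraries are not replicates.

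The difference in place did not hold without either HDAC7-deficient library. Without HDAC7-deficient replicate 1 the lost regions were 49.5% intergenic against 48.7% of gained regions, and without HDAC7-deficient replicate 2 48.5% against 47.2%. With peaks of at least 200 bp it shrank to 51.1% against 51.4%. Within classes of peak width it stayed, at 46.1% against 48.0% where the smaller peak was under 100 bp, 47.9% against 49.9% from 100 to under 200 bp and 49.2% against 52.6% from 200 bp.

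Lost regions lay slightly nearer to start sites than gained regions. The median midpoint of a lost region was 19245 bp from the nearest annotated start site, against 20575 bp for gained regions, 19842 bp for all merged regions and 21010 bp for consecutive 200-bp tiles of the same chromosomes. The share within 10 kb was 32.9% for lost regions, 31.1% for gained regions, 32.1% for all merged regions and 30.8% for the tiles, and for the other 4 pairs it ran from 30.5% to 32.5%. Without HDAC7-deficient replicate 2 the order turned, to 32.2% for lost and 33.0% for gained regions.

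Lost regions were the richest of the 6 pairs in CpG sites. Their central 200 bp held a mean of 1.90 CpG. Gained regions held 1.73, wild-type 2 with HDAC7-deficient 1 held 1.87, all merged regions 1.81 and the tiles 1.69. The mean was higher for lost regions than for gained regions, for the pairs of number 1 and number 2 and for all merged regions on 13 of 13 chromosomes, and higher than for wild-type 2 with HDAC7-deficient 1 on 10 of 13. A window without any CpG was found for 26.6% of lost regions (26.2 to 27.0) and 28.6% of gained regions (28.2 to 29.0). Mean GC content was 44.0% in lost and 42.8% in gained regions, and 44.1% in the number 1 pair. The ratio of observed to expected CpG was 0.213 in lost regions, 0.202 in gained regions and 0.194 in the tiles.

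Among regions with both wild-type peaks, mean CpG fell from 1.90 where no HDAC7-deficient library had a peak to 1.71 with 1 and 1.63 with both, while GC content stayed at 44.0%, 43.9% and 44.0%. In regions with both HDAC7-deficient peaks it was 1.73 where no wild-type library had a peak and 1.63 where both had, and it was lowest where 1 had. Where the smaller peak was at least 200 bp the order was not kept, at 1.79, 1.59 and 1.59 for the regions with both wild-type peaks while for those with both HDAC7-deficient peaks it was 1.52 with none, 1.48 with 1 and highest with both. Lost regions exceeded gained regions within each width class, with 1.97 against 1.83 CpG under 100 bp, 1.86 against 1.72 from 100 to under 200 bp and 1.79 against 1.52 from 200 bp. The difference did not hold without either HDAC7-deficient library. Without HDAC7-deficient replicate 1 lost and gained regions both held 1.76 CpG. Without HDAC7-deficient replicate 2 the order turned to 1.82 in lost and 1.96 in gained regions.

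Repeats moved with the replicate number. Soft-masked bases made up 37.1% of the central windows of lost regions, 34.0% of gained, 42.9% of the number 1 pair and 30.5% of the number 2 pair, with 33.6% in the tiles. The lost value lay between those of the same-number pairs. What sets the lists of number 1 and number 2 apart was not tested.

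**Figure D3:**
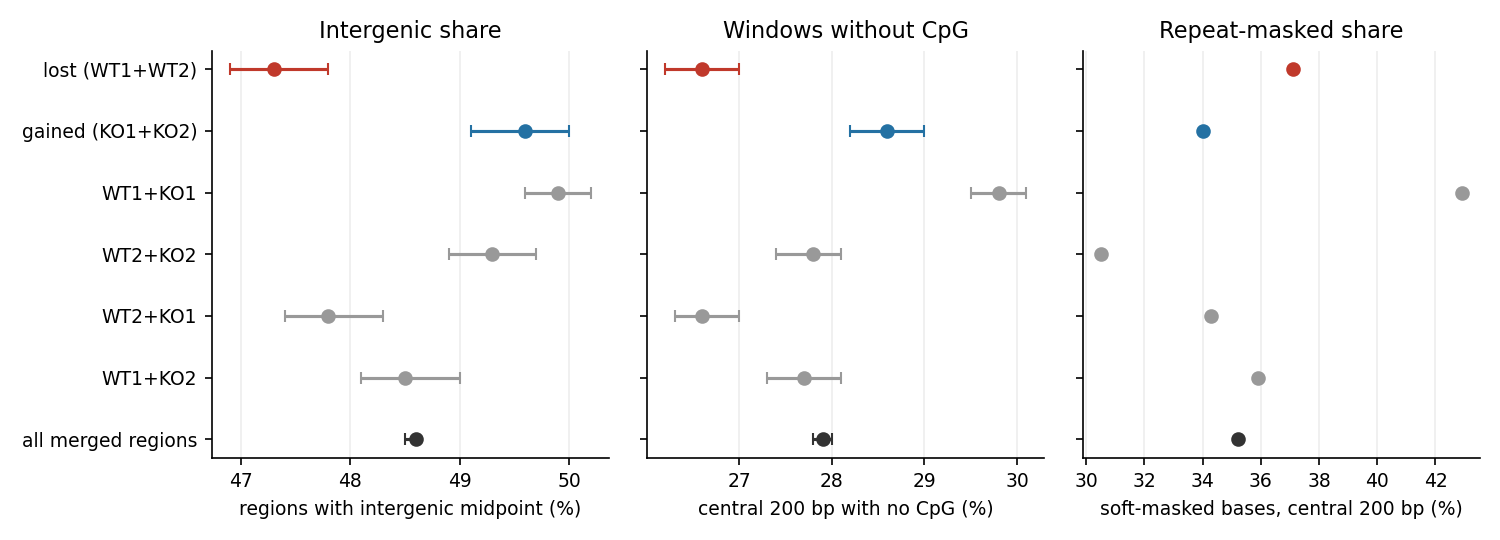
Share of regions with an intergenic midpoint, share of central 200-bp windows without a CpG, and share of soft-masked bases in these windows, all in percent, for the 6 library pairs and all merged regions (WT, wild-type; KO, HDAC7-deficient). Bars are 95% Wilson intervals over regions in the first 2 panels, the third has none, and axes do not start at 0. Lost regions are lowest in intergenic share (47.3%), level with WT2+KO1 in windows without CpG (26.6%) and within the range of the other pairs in soft-masked bases (37.1%).

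Short motif letters of pro-B cell factors were found about as often in lost regions as in the others. The letters were matched on both strands of the central 200 bp, and a match is not a bound site. GAGGAAGT, a PU.1 core, was present in 1.79% of lost, 1.53% of gained, 1.58% of all and 1.21% of tiled windows, and in 1.38% and 1.88% of the number 2 and number 1 pairs. CCCNNGGG, the EBF1 palindrome, was present in 3.79% of lost windows, above the 3.14% to 3.58% of the other 5 pairs and the 3.25% of the tiles. CAGCTG was present in 7.45% of lost and 7.37% of gained windows, and TGTGGTT (RUNX) in 5.21% and 5.14%. TGTTTAC (FOXO) was present in 2.37% against 2.76%, TGANTCA (AP-1) in 4.79% against 4.97%, AANNGAAA (IRF) in 30.4% against 32.3% and TGGGAA in 18.5% against 18.3%. CTAAAAATA, the MEF2 sequence (MEF2 factors recruit class IIa deacetylases), was present in 0.383% of lost, 0.422% of gained and 0.505% of tiled windows. The EBF1 palindrome and the GC content can move together, and their part in each other was not tested.

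Lost regions were spread over the genome. The share of merged regions that were lost ranged from 2.45% (chromosome 4) to 2.63% (chromosome 11). Their density ran from 24.6 per Mb on chromosome 12 to 29.5 per Mb on chromosome 11. The nearest other lost region lay at a median of 12675 bp, with 42.4% within 10 kb and 5.89% within 1 kb. Within 10 kb the share was 45.8% for gained regions. Over the other pairs it ran from 41.0% (wild-type 1 with HDAC7-deficient 2) to 63.5% (number 1 pair). Among the 6 pairs this share rose with the number of regions in the set. The region next to a lost region was itself lost in 3.09% of cases, 1.23 times the overall share, and the 10th neighbour in 2.45%. For the other pairs the same ratio for the next region ran from 1.16 to 1.28.

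In 1840 windows of 1 Mb with at least 200 merged regions, between 0.901% and 4.55% of regions were lost, with a median of 2.46%. Gained regions spread as widely, from 1.21% to 5.32% with a median of 2.82% (standard deviation 0.546, against 0.533 for lost regions). The windows named are the extremes of this spread and were not tested. The highest share lost was in chr9:46000001-47000000, with 55 of 1210 regions lost (95% Wilson interval 3.51% to 5.87%) and 23 gained (1.90%). This window lies around the apolipoprotein genes Apoa1, Apoc3, Apoa4 and Apoa5 and the kinase gene Sik3. Next came chr5:125000001-126000000, which holds Gm40323 and Scarb1, with 52 of 1236 lost (4.21%) and 27 gained. The window chr11:100000001-101000000, with keratin genes and Stat5a, Stat5b and Stat3, had 59 of 1417 lost (4.16%) and 32 gained. The windows around Itga4 and Neurod1 on chromosome 2 (40 of 974) and around Emcn and Dapp1 on chromosome 3 (42 of 1023) both had 4.11% lost, and on chromosome 2 as many as 41 regions were gained. The lowest share, 8 of 888 (0.901%), was in the window of chromosome 5 that holds Slit2.

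Most long genes held a lost region. Of 16168 protein-coding genes, 8447 (52.2%) had one in the gene or within 2 kb on either side, and 52.7% had a gained region. The share was 19.4% in the shortest 25% of genes and 90.6% in the longest 25%. In the promoter, 662 genes (4.09%) had a lost and 629 (3.89%) a gained region. Of 1623 miRNA genes, 156 (9.61%) had a lost region within 2 kb and 187 a gained region.

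The 10 genes with most lost regions each span more than 1000 kb. Gm20388, a gene model 4435 kb long that spans other genes, had 165 lost and 138 gained regions. Fgfr2, annotated over 2961 kb, had 88 lost and 92 gained. The synaptic and adhesion genes Dlg2 (50 lost, 47 gained), Ptprd (43 and 48), Csmd1 (42 and 46), Pcdh15 (41 and 35), Lrp1b (38 and 50) and Cntnap2 (37 and 58) followed, with Macrod2 (42 and 55). Zfhx3, which encodes a homeodomain zinc finger factor, had 42 lost and 20 gained regions in 1019 kb, and 75 and 37 regions of the number 1 and number 2 pairs.

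By share, small counts decided the order. Of genes longer than 20 kb with at least 20 merged regions, D130052B06Rik had 4 of 24 lost (16.7%), C87436 had 6 of 37 (16.2%) and the vomeronasal receptor gene Vmn2r73 had 3 of 20. The homeobox gene Gbx1 and the matrix gene Mxra7 each had 4 of 29 (13.8%), with no gained region in Gbx1 and 1 in Mxra7. D2hgdh, the dehydrogenase of D-2-hydroxyglutarate (a metabolite that inhibits TET enzymes), Mfsd11 and the MYB-family gene Mybl1 each had 3 of 22 (13.6%). Fbxw22 and Nudt21 had 3 of 23.

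Over all protein-coding genes 2.59% of merged regions were lost and 2.76% gained, and gene families are set beside these shares. The 924 olfactory receptor genes, silent in lymphocytes, held 184 lost and 302 gained regions (1.98% and 3.24% of their merged regions). The 280 vomeronasal receptor genes held 95 and 136 (2.43% and 3.47%), and the 215 immunoglobulin V segments 13 and 24 (1.39% and 2.57%). Hox genes had 11 lost and 5 gained regions (3.08% and 1.40%). Of the 30 genes, where neighbouring genes share regions, 12 had a lost and 3 a gained region. The shares of genes were 52.2% and 52.7% over all protein-coding genes, and 19.4% and 19.9% in the shortest 25%. Median Hox gene length was 3.35 kb. Keratin genes had 12 lost and 13 gained regions at the highest densities of these families, 4.61 and 4.99 per 100 kb, against 2.78 and 2.96 for all protein-coding genes. Zinc finger genes had 265 lost and 303 gained regions (2.46% and 2.82%) and glutamate receptor genes 186 and 192 (2.60% and 2.68%), near the shares over all genes. Interleukin and receptor genes had 49 and 60 (2.09% and 2.56%). These counts carry no test, and no difference between families was tested.

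**Figure D4:**
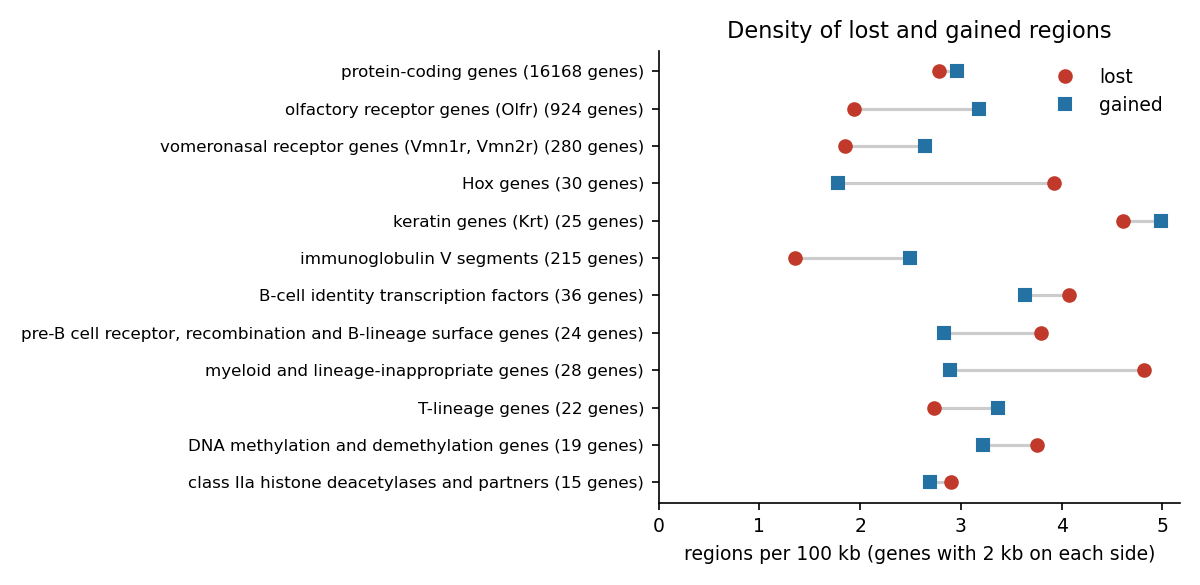
Lost (circles) and gained (squares) regions per 100 kb on the x axis in genes with 2 kb on each side, for gene families and lists, each region counted once per list. Myeloid genes have 4.82 lost against 2.89 gained regions per 100 kb, olfactory receptor genes 1.94 against 3.18, and all protein-coding genes 2.78 against 2.96.

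Transcription factor genes of B-cell identity carried lost and gained regions in similar number. Of the 36 on these chromosomes, 26 had a lost region, against 52.2% of all protein-coding genes. Median gene length was 63.7 kb in the list and 17.6 kb over all protein-coding genes, and longer genes more often held a lost region. In all, the list held 152 lost and 136 gained regions. These were 2.85% and 2.55% of its merged regions, against 2.59% and 2.76% in all protein-coding genes. Foxp1 had most, with 24 lost and 20 gained, then Ebf1, the early B-cell factor, with 15 and 19, and Bach2 with 11 and 16. Pax5, which commits progenitors to the B lineage, had 7 and 10. Foxo1 had 0 and 6, and Tcf12 had 2 and 9. A gained region lay in the promoter of 2 genes of the list (5.56%, against 3.89% of all protein-coding genes). Ikzf3 was the only one with a lost region in its promoter (2.78%, against 4.09%). There peaks covered 323 bases in wild-type 1 and 240 in wild-type 2, and an HDAC7-deficient peak lay 100 bp away.

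Spi1 was examined further because it holds 1 of the 8 lost regions named by rule, a choice made after its values were seen. It encodes PU.1, an ETS factor whose level balances myeloid against B-cell fate. Of the 60 merged regions of the gene 5 were lost and none gained, and with 2 kb on each side it had 6 lost and no gained regions. The broadest, chr2:91095381-91096175, has its midpoint in an intron 13388 bp downstream of the start site and also overlaps an annotated untranslated exon. It carries 11 CpG and had 717 (wild-type 1) and 722 (wild-type 2) bases under peaks, with an HDAC7-deficient peak 297 bp away. Another, chr2:91094861-91095220, sits just before it with 336 and 309 bases. The others lay 4096, 22785 and 25266 bp downstream of the start site in introns and, past the gene, at 34412 bp. Of all protein-coding genes, 9 had at least 6 lost and no gained region, among them Gbx1, Sp100 and Nsf, and 14 had at least 6 gained and no lost region.

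Peaks lay over 28.9% of the Spi1 gene in wild-type 1, 24.6% in wild-type 2, 17.4% in HDAC7-deficient 1 and 19.9% in HDAC7-deficient 2. The genotypes did not overlap. This order is partly set by the rule, because the cover of a gene includes the bases of its lost regions, and Spi1 was picked for one of them. What the order would be without those bases was not tested. Both wild-type libraries were above both HDAC7-deficient libraries in 18.1% of protein-coding genes and below them in 10.3%, so a gene with this order is common. Spi1 kept 11 regions with a peak in all 4 libraries. Its count of 6 lost regions became 3 with peaks of at least 200 bp or with peaks within 100 bp merged, and 2 where no HDAC7-deficient peak was within 500 bp, with no gained region under each of these settings.

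Other genes of the list were split. At Zeb2, a repressor with 9 lost and 2 gained regions, 11.6% and 12.9% of the gene lay under wild-type peaks, against 8.99% and 10.7% under HDAC7-deficient peaks. At Ikzf3 it was 14.2% and 12.3% for wild-type against 18.7% and 17.3%, the reverse order in a gene whose promoter region was lost. At Ebf1 the genotypes overlapped, at 9.91% and 13.4% in wild-type against 11.8% and 13.1%, as they did at Foxp1. In the list, 8 of 36 genes had both wild-type libraries above, and 2 had both below, beside the 18.1% and 10.3% of all protein-coding genes.

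**Figure D5:**
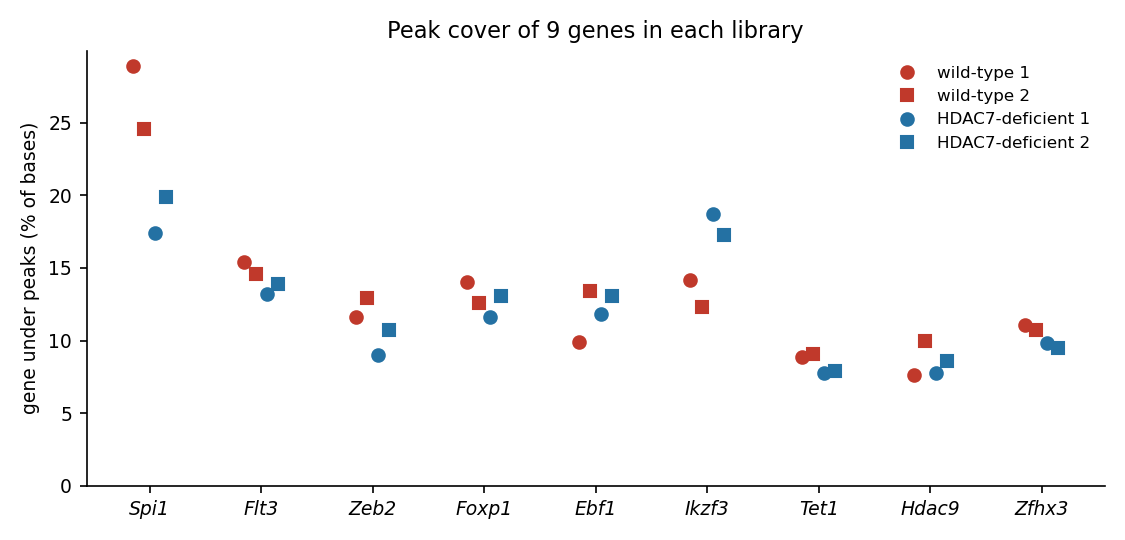
Percent of bases of 9 genes under peaks in each library (y axis from 0), for genes picked after their values were seen. Cover includes the bases of lost and gained regions. Red circles and squares are wild-type replicates 1 and 2, blue ones HDAC7-deficient replicates 1 and 2. Spi1 is at 28.9% and 24.6% (wild-type) against 17.4% and 19.9% (HDAC7-deficient), Ikzf3 has the reverse order, and Foxp1, Ebf1 and Hdac9 overlap.

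Genes of the pre-B cell receptor, of V(D)J recombination and of the B-lineage surface held 55 lost and 41 gained regions (3.03% and 2.26% of their merged regions, against 2.59% and 2.76% in all protein-coding genes), and 16 of 24 genes had a lost one, against 52.2% of all protein-coding genes. The kinase gene Fyn had 13 and 8, Plcg2, the phospholipase downstream of the receptor, 9 and 3, and the repair gene Xrcc4 7 and 8. Flt3, a cytokine receptor of early progenitors, had 5 lost and no gained regions, with 15.4% and 14.6% of the gene under wild-type peaks, against 13.2% and 13.9% under HDAC7-deficient peaks. Cd79a, where the Cre was inserted, had 2 and 1 and Rag1 had 0 and 2. No gene of this list had a lost region in its promoter, against 4.09% of all protein-coding genes. A gained region lay in the promoter of 2 of them (8.33%), against 3.89%. With peaks of at least 200 bp the list had 26 lost and 26 gained regions, and with no peak of the other genotype within 500 bp 22 and 7. Both wild-type libraries covered more of the gene in 8 of 24 genes and less in 2, against 18.1% and 10.3% of all protein-coding genes.

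Genes listed as myeloid or lineage-inappropriate held 25 lost and 15 gained regions in 675 merged regions (3.70% and 2.22%). Median gene length was 7.73 kb, against 17.6 kb over all protein-coding genes. Of the 28 genes 17 had a lost region, against 52.2% of all protein-coding genes. No gene had more than 3. Itgam (CD11b) and Tlr4 had 3 lost and 1 gained each, and Fcgr3 (CD16) had 2 and 0. Fos and Jund, of the AP-1 family, had 1 and 0 each, Fosb had 0 and 1, and Jun and Junb had none. Fosl2, also of that family, had a lost region over its promoter and first exon, chr5:32135859-32135961, with 49 and 90 bases under wild-type peaks and the nearest HDAC7-deficient peak 642 bp away. Where no peak of the other genotype lay within 500 bp, the list had 7 lost and 6 gained regions. Both wild-type libraries covered more of the gene in 9 of 28 genes and less in 1 (18.1% and 10.3% of all protein-coding genes). The 1 was Jun, with 0.533% and 0% of the gene under wild-type peaks against 13.2% and 13.6% under HDAC7-deficient peaks, named here after its values were seen.

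T-lineage genes held 34 lost and 42 gained regions, 2.36% and 2.92% of their merged regions. Over all protein-coding genes the shares were 2.59% and 2.76%, also with fewer lost than gained. Median gene length was 25.4 kb, against 17.6 kb over all protein-coding genes. Of the 22 genes 15 had a lost region, against 52.2% of all protein-coding genes. Tox had 6 and 9, and Bcl11b, a T-cell commitment factor, 4 and 9. Cd247 had 4 and 3. The promoters of Cd4, Thy1 and Cd3g, 3 of the 22, had lost regions, as did 4.09% of all protein-coding promoters. Bases under peaks in wild-type 1 and wild-type 2 were 180 and 238 at Cd4, 96 and 253 at Thy1 and 199 and 232 at Cd3g. The nearest HDAC7-deficient peaks were 406, 92 and 222 bp away. With peaks of at least 200 bp the list turned to 32 lost and 28 gained regions. Both wild-type libraries covered more of the gene in 6 of 22 genes and less in 3, against 18.1% and 10.3% of all protein-coding genes.

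Genes of DNA methylation and demethylation had 28 lost and 24 gained regions (3.04% and 2.61% of their merged regions). Of the 19 genes 12 had a lost region, against 52.2% of all protein-coding genes. Median gene length was 21.7 kb, against 17.6 kb over all protein-coding genes. Tet1 had 7 and 3, Tet3 had 4 and 4 and Tet2, the TET gene at the centre of the study, had 2 and 3. Wild-type peaks covered 8.22% and 7.36% of Tet2, against 7.29% and 6.32% for HDAC7-deficient peaks, and 8.87% and 9.08% of Tet1, against 7.78% and 7.93%. The de novo methyltransferase gene Dnmt3a had 5 and 3. The promoter regions of Gadd45a (129 and 233 bases under wild-type peaks) and Dnmt3l (113 and 97) were 114 and 302 bp from an HDAC7-deficient peak. The Dnmt3l region also lies in the neighbouring gene Aire, and the Gadd45a region in E230016M11Rik. In this list 7 of 19 genes, Tet1, Tet2 and Tet3 among them, had more of the gene covered in both wild-type libraries, and 2 had less, against 18.1% and 10.3% of all protein-coding genes.

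Class IIa histone deacetylases and their partners had 69 lost and 64 gained regions (2.65% and 2.46% of their merged regions), and 13 of 15 genes had a lost one. The median length of these genes is 140 kb, and 90.6% of the longest 25% of protein-coding genes had a lost region. With no peak of the other genotype within 500 bp the list had 36 lost and 17 gained regions. Hdac9 had 24 and 22 and the calmodulin kinase gene Camk2d 9 and 9. Hdac4 had 7 and 5 and Hdac5 had 2 and 2. More of the gene was covered in both wild-type libraries in 3 of 15 genes, and less in 1, against 18.1% and 10.3% of all protein-coding genes. At Mef2b the wild-type peaks were 100 and 11 bp wide, and the region lies at the start of the neighbouring gene Rfxank.

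Of the 9 miRNA genes named by the study on these chromosomes, Mir150, a microRNA of mature lymphocytes, alone had a lost region, in its promoter. Wild-type replicate 1 had 83 and wild-type replicate 2 had 417 bases under peaks there, and the nearest HDAC7-deficient peak was 882 bp away. A gained region also lay within 2 kb of the gene. Mir142 had a gained region in its promoter and no lost one, and Mir125b-1, Mir34a, Mir126a and both Mir181a and both Mir29b genes had neither. The share of genes with a lost region, 11.1% of the list, was near the 9.61% of all miRNA genes. With peaks of at least 200 bp the list had 0 lost and 3 gained regions.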

How the data were processed

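5-hmC was profiled by hMeDIP-seq in 2 wild-type and 2 HDAC7-deficient libraries of sorted pro-B cells. The 4 input libraries were not analysed here. The deposited values are peak positions (chromosome, start and end) in the build mm10 (GRCm38), with no count, height or score, so depth is unknown and intervals cover the number of regions alone. The submitters' processing notes name Trim Galore 0.4.2, cutadapt 1.6, Bowtie2, deepTools and MACS2. The study's methods name bwa as the aligner, RPKM-normalized tracks from deepTools, and peak calling with the bdgpeakcall option of MACS2, after which the authors removed peaks that met input peaks. A list for each library is deposited. Whether the removal was done before deposit, and which signal the caller read, is not given in the sources used here. The authors' differential test on reads was not repeated.

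Peaks that shared at least 1 bp were merged in Python (3.11.15, with NumPy at 2.4.6 and pandas at 2.3.3) and plotted with matplotlib 3.10.9. Chromosomes 1 to 13 were used, as the rule sets. They hold 70.2% of the peaks of HDAC7-deficient replicate 2 and 73.5% to 74.2% of those of the other lists. Genes came from GENCODE M21, and soft-masking from the GRCm38 sequence. Each region was placed by its midpoint in a promoter, exon, intron or intergenic sequence. CpG, GC and motif letters were counted in the 200 bp around the midpoint. A gene held a region if they shared a base, with 2000 bp added on each side for lists. The regions named were the 8 lost regions with the largest smaller peak (at most 50% soft-masked and 2000 bp wide). The genes named were the 10 with most lost regions, the 10 with the highest share lost, and in each list the genes with a lost region in the promoter and the 3 with most lost regions. Spi1, Zeb2, Flt3, the other genes named within lists and the genes plotted by library were picked after their values were seen. The members and the lists were chosen with earlier results of these data known. Some listed genes lie outside chromosomes 1 to 13 and were left out, and some items are not reported here. Motif letters for each factor are short consensus cores.

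No test was made, since the rule used the same contrast. An exact permutation test of 2 against 2 libraries could not pass 0.05. The merging code was tested on simulated data with 20000 planted sites and returned all 20000 patterns. Alternatives changed the peak width, the overlap, the merging distance, the isolation from other peaks, the chromosomes, the promoter, the window and the libraries used. The counts in lists under other settings were added after the data were seen.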

Additional observations from a re-analysis of the deposited data

How the results depend on the processing

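The count of lost regions, 47478, was 35203 with peaks at least 200 bp wide, 48323 with an overlap of 50% of the shorter peak, 42165 with peaks within 100 bp merged and 59992 on chromosomes 1 to 19. It was 20114 with no peak of the other genotype within 500 bp, and 390112 or 588190 with only the libraries numbered 1 or numbered 2. Leaving out 1 library gave 98340 to 411618 lost regions, because fewer lists then have to agree. The ratio of lost to gained regions, 0.886, became 1.11 with peaks at least 200 bp wide and 1.15 with only the libraries numbered 2, both reversed. It was 0.945 with no peak of the other genotype within 500 bp, 0.868 with the 50% overlap, 0.928 with peaks within 100 bp merged, 0.837 on chromosomes 1 to 19 and 0.845 with only the libraries numbered 1. Leaving out 1 library gave 0.320 to 2.44, reversed to 2.44 without wild-type replicate 1 and to 2.31 without wild-type replicate 2, since the genotype left with 1 list gains regions.

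With peaks at least 200 bp wide, 51.1% of lost regions were intergenic, 31.7% lay within 10 kb of a start site, 32.1% had another lost region within 10 kb, 30.8% had no CpG in the central 200 bp and 38.8% of their bases were soft-masked. With no peak of the other genotype within 500 bp the promoter share was 2.34%, 31.4% lay within 10 kb of a start site, 22.4% had another within 10 kb and 27.5% had no CpG. With peaks within 100 bp merged 37.7% had another within 10 kb and 35.8% of bases were soft-masked, and on chromosomes 1 to 19 41.6% had another within 10 kb. Leaving out 1 library gave 45.2% to 49.5% intergenic, 2.40% to 2.79% in promoters, 31.8% to 34.6% within 10 kb of a start site, 66.8% to 98.4% with another within 10 kb, 24.4% to 28.9% without CpG and 31.8% to 38.6% soft-masked. A promoter from 2000 bp upstream to 500 bp downstream held 5.57%. Start sites of protein-coding genes alone had 16.6% of lost regions within 10 kb. A window of 400 bp had no CpG in 10.1%. Of protein-coding genes 46.1% had a lost region in the gene body, and 52.2% with 2000 bp on each side. In lists, lost and gained T-lineage regions reversed to 32 and 28 with peaks at least 200 bp wide, and those of the named miRNA genes from 1 and 2 to 1 and 0 with no peak of the other genotype within 500 bp. The remaining alternatives left the values within their counting interval, or counts within 1.5 times, apart from some list counts. The cause of these changes was otherwise not tested.

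Depth is unknown, so the lists cannot tell a region without 5-hmC from one below the threshold of the caller. Nor can they tell either from a region whose peak was removed for meeting an input peak. No paired test was fitted, since the results come from no test, and the ratio within each replicate number is given above.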
